A study of Mus musculus with 12 samples.

Results

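The DNA copy number of mouse chromosome 1 beyond its first 15 Mb was measured in 12 liver tumors by array-based comparative genomic hybridization (aCGH), in which tumor DNA and reference DNA in different colours compete for probes of known position, so that the colour ratio gives the relative copy number. The members were the 2634 array probes on chromosome 1 that start above position 15000000 of the mouse genome build mm8, of 42235 probes on the autosomes and the X chromosome. They ran from 15681672 to 196871918, with a median spacing of 25.4 kb and a largest gap of 4.32 Mb (chr1:113688624-118006946), and carried 1261 gene names, while 368 of them were named by position only. The stretch was selected on the log2 ratios of these same 12 arrays, in which earlier readings showed gains in its proximal part and a loss at its distal end, so the ratios of single tumors are given as a description and are not tested. The bound itself cut the gains called in PHx3M and Spon2M. That of PHx3M ran from 4336501 to 25849610, with 118 of its 233 probes beyond 15 Mb, and that of Spon2M started at 14870952. The 5 probes just outside the bound (chr1:14807085-14990719) had a mean log2 ratio of 0.28 in PHx3M, where 3 were measured, and 0.50 in Spon2M. The 5 probes just inside it (chr1:15681672-15875394) had means of 0.69 and 0.69.

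All mice were Mdr2-KO/FVB (strain FVB.129P2-Abcb4tm1Bor). They lack the canalicular phospholipid transporter encoded by Abcb4 (Mdr2), so that the liver is chronically inflamed and hepatocellular carcinoma (HCC) develops with age. The post-PHx group comprised 6 tumors (4 of males and 2 of females) of mice killed at 9 months after 70% partial hepatectomy (PHx), performed at 3 or 6 months, and the spontaneous group comprised 6 tumors (2 of males and 4 of females) of untreated mice aged 13 to 14 months, so that treatment and age cannot be told apart. DNA of each tumor was labelled red (Cy5) and hybridized on 1 array with green (Cy3) DNA from non-tumor liver of that animal, taken at a distance from the tumor, without a dye swap. The tumors are named by group, number and sex (PHx3M, Spon3F), and each gave 1 array, so an error given over probes says nothing of the spread between tumors. The arrays stood on 3 slides of 4: slide 1 with PHx1M to PHx4M, slide 2 with Spon5F, Spon6F, PHx5M and PHx6F, and slide 3 with Spon1M to Spon4F.

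Mouse chromosome 1 holds many genes of hepatocyte function, inflammation and cell division. Its distal part corresponds to a part of the long arm of human chromosome 1, which is among the most often gained regions in human HCC, and much of its middle part corresponds to the long arm of human chromosome 2. A change in copy number alters the dose of all genes of a segment together, those of microRNAs (miRNAs) included. In a pure tumor, 3 copies in place of 2 would give a log2 ratio of 0.58 and 1 copy in place of 2 a ratio of -1, and smaller values cannot be told apart between a change in part of the cells, non-tumor cells in the sample and the compression of ratios on an array.

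Examples of the miRNA genes that lay inside the gained and lost segments are shown first, since they are the short sequences whose dose the segments carried along. They are a part of those found, and none from the gains of PHx4M is printed. The mature sequences were taken from RefSeq (GRCm38.p6) and are printed 5′ to 3′ with the seed (bases 2 to 8) in capitals. In all, 62 miRNA genes could be placed on mm8 between neighbouring genes that had probes on this chromosome, among them 4 in the gain of PHx3M, 2 in those of PHx4M, 11 and 18 in the first and second loss of Spon1M, and 10 in the loss of Spon3F.
mmu-miR-206-3p: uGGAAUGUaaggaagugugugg
mmu-miR-133b-3p: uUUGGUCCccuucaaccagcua
mmu-miR-30a-5p: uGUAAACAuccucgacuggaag
mmu-miR-30c-5p: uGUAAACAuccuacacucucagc
mmu-miR-26b-5p: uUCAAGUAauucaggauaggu
mmu-miR-149-5p: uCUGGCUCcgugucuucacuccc
mmu-miR-194-5p: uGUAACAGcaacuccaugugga
mmu-miR-215-5p: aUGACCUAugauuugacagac
mmu-miR-205-5p: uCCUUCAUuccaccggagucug
mmu-miR-29b-3p: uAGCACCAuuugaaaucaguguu
mmu-miR-29c-3p: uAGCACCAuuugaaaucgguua
The first 4 lay in the gain of PHx3M, miR-26b and miR-149 in the second loss of Spon1M, and the last 5 in the loss of Spon3F. miR-30a and miR-30c shared the seed GUAAACA, and miR-29b and miR-29c shared AGCACCA. The mature miR-30c-5p, miR-194-5p and miR-29b-3p are each also encoded on another chromosome (4, 19 and 6), so the segment held only part of their gene dose.

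Before the single segments, the state of the arrays is given. Between 2546 and 2628 members per array remained after spots marked as outliers were dropped, at least 97.5% of member spots on each array were well above background in both channels, and the green signal stood at 6.91 to 25.9 times its background (medians per array) and the red signal at 3.67 to 13.8 times. The noise between neighbouring member probes was lowest in Spon1M (0.14) and highest in Spon2M (0.27). The arrays of slide 3 stood apart at single probes. In Spon4F, 633 probes of the genome, 19 of them members, were lower by more than 1 log2 unit in both channels than the median of the arrays of slides 1 and 2. At these 19 members, against the median of the other arrays with Spon1M, Spon2M and Spon3F left out, the red channel alone was low in Spon1M (median deviation -1.41, green -0.09) and Spon3F (-1.98, green -0.25), the green channel alone was low in Spon2M (-1.69, red 0.24), and the 8 arrays of slides 1 and 2 lay between -0.19 and 0.28 in both.

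**Figure D1:**
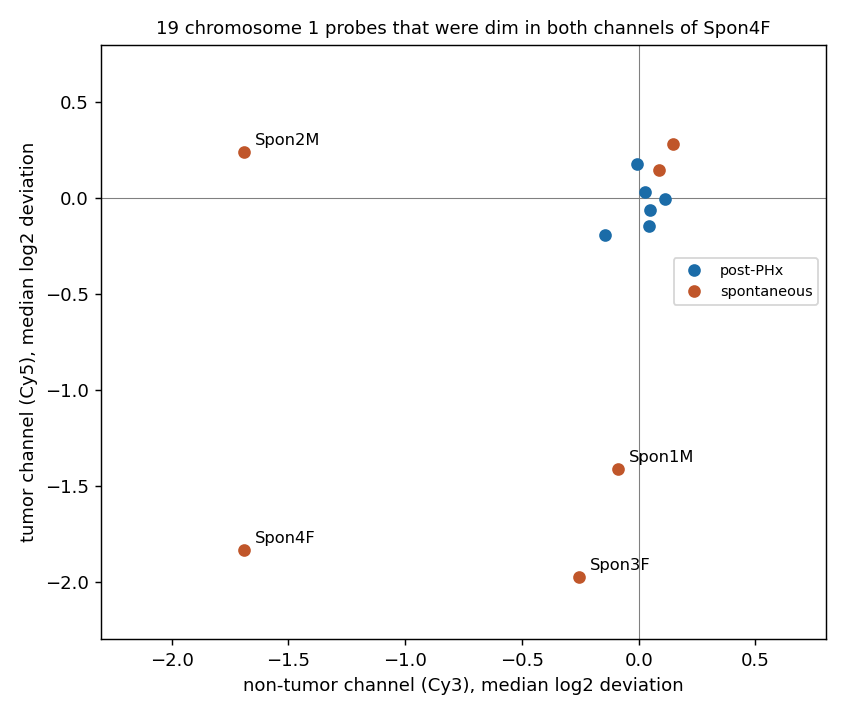
Each point is 1 array, at the median log2 deviation of the non-tumor channel (x axis) and of the tumor channel (y axis) from the median of the other arrays (Spon1M, Spon2M and Spon3F left out), over 19 chromosome 1 probes chosen for being dim in both channels of Spon4F. The other 3 arrays of slide 3 were low in 1 channel, Spon1M and Spon3F in the tumor channel and Spon2M in the non-tumor channel, and the arrays of slides 1 and 2 lie around 0.

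These probes gave large ratios of opposite sign on the 3 arrays, with medians of -1.54 in Spon1M, 1.89 in Spon2M and -1.76 in Spon3F, and near 0 in Spon4F (0.03). Of 14 members below -1 in Spon1M, 13 were above 1 in Spon2M and 12 were below -1 in Spon3F, which had 34 and 59 members beyond these bounds. The 11 shared by the 3 arrays lay in or beside Aff3, S71494, Col6a3, AK153979, En1, BC004798, Nuak2, Sox13 and Refbp2, and 2 were named by position only. Across the genome 306 probes on 20 chromosomes shared this pattern. Neither its cause nor its part in the results was put to a test. The means of the gained and lost segments of these 3 tumors are given also without probes beyond 1 log2 unit. The called regions are given also without the probes dim in both channels of Spon4F. That tumor and non-tumor DNA on an array came from the same mouse is taken from the study's description and was not checked, which bears on every ratio of slide 3.

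**Figure D2:**
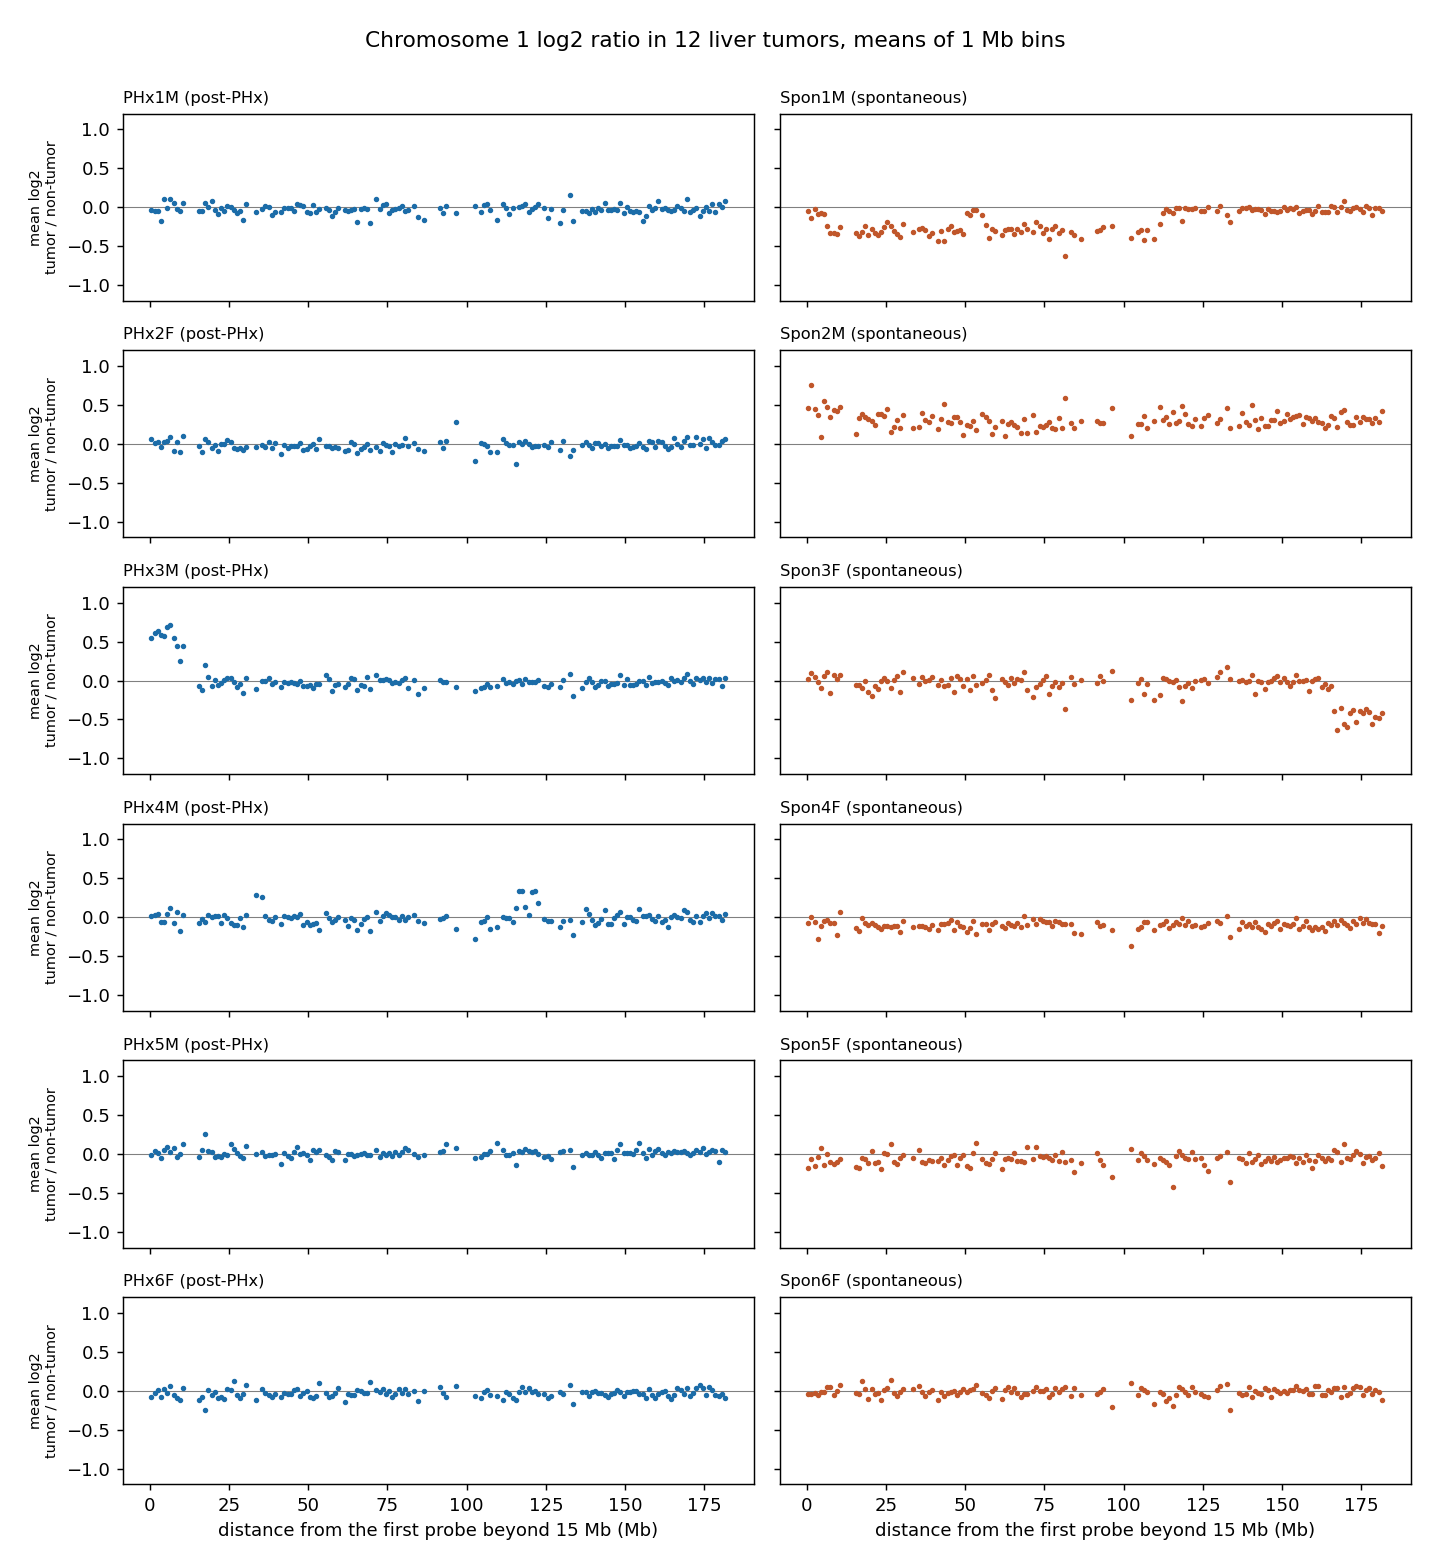
Mean log2 ratio of tumor over non-tumor liver (y axis) in 1 Mb bins with at least 3 probes along chromosome 1 (x axis, distance from the first probe beyond 15 Mb), 1 panel per tumor, post-PHx on the left and spontaneous on the right. Shifted stretches appear in PHx3M and PHx4M on the left and in Spon1M, Spon2M and Spon3F on the right, and each has its own extent.

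Chromosome 1 was divided in each tumor into segments of even ratio, and a segment with a mean log2 ratio of at least 0.2 was called gained and one of at most -0.2 lost. Beyond 15 Mb, gained or lost segments were found in 5 of 12 tumors: gains in PHx3M, PHx4M and Spon2M and losses in Spon1M and Spon3F. A stricter call took from the study its minimum of 2 probes per region and of 0.4 for the size of the mean, and added an interval score of at least 6, which was set here. It gave 6 regions in 3 tumors, of which only 3 held more than 2 probes: the gain of PHx3M, the proximal part of Spon2M and the distal loss of Spon3F. The gains of PHx3M and of the proximal part of Spon2M and the loss of Spon3F fit the words proximal gain and distal loss, whereas the losses of Spon1M were proximal and central and the gains of PHx4M distal. In PHx3M, 118 of 2554 members (4.62%) were called amplified against 3.4% of all its probes (6.67% in gained segments), and in Spon2M 133 of 2626 (5.06%) against 0.505%. In Spon3F, 275 of 2611 members were called deleted against 1.99% of all probes, and 10.4% of members lay in a lost segment against 1.18%. Under the wider rule 1229 of 2622 members (46.9%) were lost in Spon1M against 15% of all its probes, 157 of 2607 (6.02%) were gained in PHx4M against 8.48%, and all 2626 were gained in Spon2M against 16.4%. These shares rest on the ratios that chose the region, so nothing is read from them. The remaining tumors PHx1M, PHx2F, PHx5M, PHx6F, Spon4F, Spon5F and Spon6F had means over all members between -0.09 (Spon4F) and 0.01 (PHx5M).

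The proximal gain was that of PHx3M. Beyond 15 Mb it covered chr1:15681672-25849610, a stretch of 10.2 Mb with 53 gene names, and its mean log2 ratio was 0.56 ± 0.22 (SD over 118 probes), or 1.47-fold. All 118 probes lay above 0, while the rest of the chromosome in the same tumor had a mean of -0.02. The other 5 post-PHx tumors lay between -0.05 and 0.02 over this window. The spontaneous tumors lay between -0.17 (Spon1M) and 0.47 (Spon2M) with a median of -0.05, so Spon2M alone came near PHx3M. The gain had a step inside Col9a1, a chain of the cartilage collagen type IX. Up to 24133907 the mean was 0.61 (97 probes, 1.52-fold) and from 24206567 on it was 0.32 (21 probes, 1.25-fold), a difference of 0.28 against -0.05 to 0.18 between the same windows in the other 11 tumors. In the higher level the red channel deviated from the other arrays by a median of 0.43 and the green channel by -0.15. In the lower level they deviated by 0.28 and 0.03, so the step held a part from the non-tumor channel. With a higher penalty per segment (10 or 20 in place of 6, chosen after seeing the data) this step was not found, and the gain was 1 segment. The distal end fell into a stretch of 2872 kb without probes, before Gm597.

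Only 4 genes of the lists used here lay in this gain, each read from its own probes. Mcm3, a subunit of the helicase that unwinds DNA at replication origins, had a log2 ratio of 0.83 in PHx3M (2 probes), 0.55 in Spon2M and -0.13 (PHx4M) to 0.61 (PHx5M) in the other 10 tumors. Il17a and Il17f, neighbouring genes of T cell cytokines, had ratios of 0.92 and 0.33 in PHx3M, with 1 probe each, against medians of 0.03 and -0.18 in the other 10. Col9a1 had a ratio of 0.51 with its probes on both sides of the step. Over all 51 gene names of the gain with a measured probe, 51 lay above 0 in PHx3M, with a median of 0.53 and a range from 0.19 (Pi15) to 0.92 (Il17a), while the median over all gene names on the members was -0.02. Mcm3 and Il17a were highest in PHx3M among the 12 tumors, but with 1 or 2 probes these genes varied more between the other tumors than the window means did.
Of the miRNAs, the genes of miR-206 and miR-133b lay between Pkhd1 and Il17a (chr1:20366706-20719534), where 4 probes had a mean of 0.64 in PHx3M. Those of miR-30a and miR-30c-2 lay between Rims1 and Ogfrl1 (chr1:22275287-23330312), where 11 probes had means of 0.63 in PHx3M, 0.42 in Spon2M and -0.27 in Spon1M. miR-206 and miR-133b are known from muscle, and miR-30a and miR-30c are made in many tissues, the liver included.

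Tumor PHx4M had 2 gains in the distal part of the chromosome. The first covered chr1:131540290-133978851 (2.44 Mb) at a mean of 0.34 ± 0.20 (SD over 72 probes, 1.26-fold), with 71 of 72 probes above 0. The second covered chr1:135550385-137866583 (2.32 Mb) at 0.35 ± 0.22 (85 probes, 1.27-fold), with 82 of 85 above 0. The 1.43 Mb between them, from Lemd1 to Zc3h11a (chr1:134059814-135484377), had a mean of 0.01 ± 0.21 (49 probes), with 28 above and 21 below 0. The steps from this valley to either gain were 0.33 and 0.34, and between the same windows they were -0.07 to 0.11 and -0.17 to 0.12 in the other 11 tumors.

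**Figure D3:**
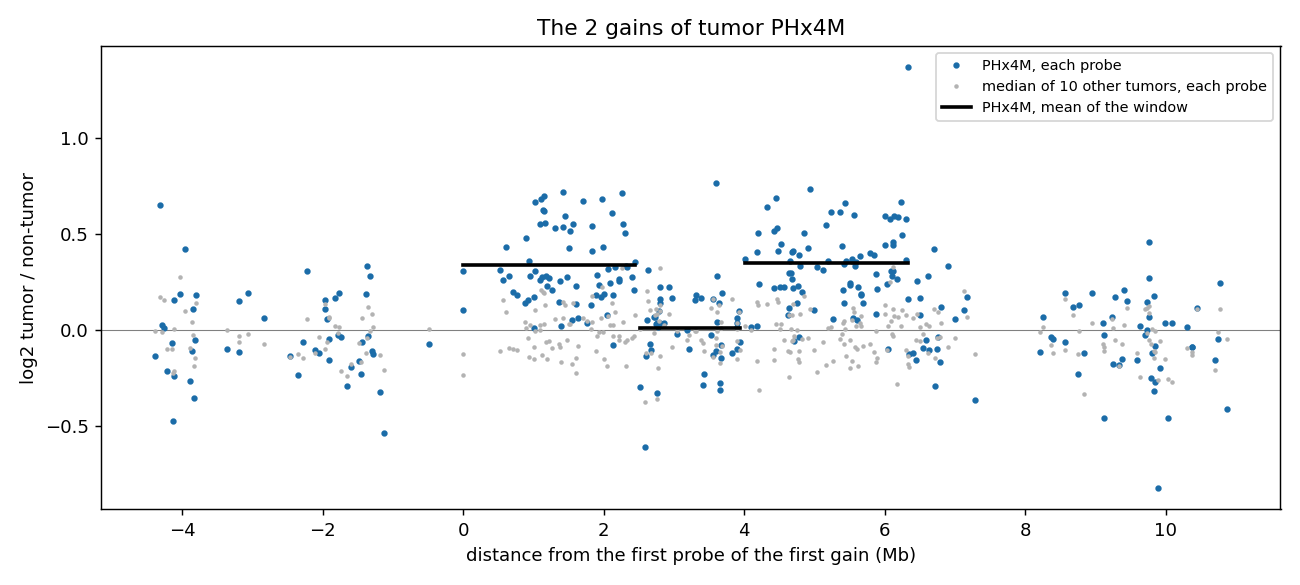
Log2 ratio of each probe (y axis) against the distance from the first probe of the first gain of PHx4M (x axis, Mb), for PHx4M and for the median of 10 other tumors (Spon2M left out), with lines at the mean of each PHx4M window. The lines stand at 0.34, 0.01 and 0.35.

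Neither gain of PHx4M reached the 0.4 of the stricter call. With a minimum of 0.25 in its place both were called, as 2 regions with the same starts, and with a penalty of 10 or 20 the segmentation joined them into 1 segment of 207 probes at 0.26. The first break lay inside Thsd7b, though any position from 131060504 to 132060700 gave nearly as small a residual, and the last lay within 13.0 kb at Cacna1s, a calcium channel gene. In the other 5 post-PHx tumors the means were -0.03 to 0.04 in the first and -0.03 to 0.03 in the second window. In the spontaneous tumors they ran from -0.07 to 0.33 and from -0.08 to 0.24, with Spon2M highest in both.

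Within the first gain lay the cluster of the Il10 gene family. Il10, an anti-inflammatory cytokine, had a log2 ratio of 0.53 in PHx4M (1 probe), and its neighbours Il19, Il20 and Il24 had ratios of 0.27, 0.23 and 0.28. Of the list of inflammation and immunity 7 of 38 measured names lay here, beside 39 of 1257 over all gene names of the members. All 7 were above 0, as were all 39 gene names of the window, and their median was 0.28. The 7 included Pigr, the receptor that carries IgA across epithelia (0.45), Ikbke, a kinase of NF-kappaB and interferon signalling (0.30), and Mapkapk2, a kinase downstream of p38 (0.20). Elk4, a transcription factor of the serum response, had 0.51, and Rassf5, a candidate tumor suppressor that binds Ras, had 0.41. C4bp, an inhibitor of complement made by the liver, had 0.36. In Spon2M, Elk4, Rassf5 and C4bp had 0.69, 0.40 and 0.61. In the 10 tumors other than PHx4M and Spon2M their highest ratios were 0.29 (PHx2F), 0.05 (Spon1M) and 0.05 (PHx2F). The second gain held Fmod, a proteoglycan that binds collagen (0.64), Chi3l1, a chitinase-like protein of inflamed tissue (0.53), and Atp2b4, a calcium pump (0.37). Mdm4, an inhibitor of p53, lay between the gains and had a ratio of 0.17 (2 probes), against -0.12 to 0.12 in the 10 tumors other than PHx4M and Spon2M. Over all gene names the medians in PHx4M were 0.30 in the first gain (39 names), 0.02 between the gains (27 names) and 0.36 in the second gain (44 names), beside -0.01 over all members. The genes of these 2 gains, and Mdm4, were named after their values had been seen. The gene of miR-1231 lay in the second gain, between Ipo9 and Csrp1, where 11 probes had a mean of 0.29 in PHx4M.

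Tumor Spon1M had 2 losses over the proximal and middle part of the stretch covered by the members. The first ran from inside Tmem14a for 44.1 Mb (chr1:21213485-65357239) at a mean of -0.32 ± 0.20 (SD over 597 probes, 0.80-fold), with 587 of 597 probes below 0. The second ran from Xrcc5 for 53.6 Mb (chr1:72267840-125882022) at -0.31 ± 0.25 (632 probes, 0.81-fold), with 611 below 0. Between them, chr1:65858470-72225409 had a mean of -0.09 ± 0.16 (70 probes), and the first and second loss minus this stretch gave -0.23 and -0.22. The same differences were -0.02 to 0.04 and -0.04 to 0.04 in the other 11 tumors. The first 5.53 Mb of the members, before these 2 losses (67 probes), had a mean of -0.05. The distal 69.7 Mb after them (1256 probes) had one of -0.04. These means were -0.02 and -0.03 without probes beyond 1 log2 unit. With the 0.4 of the stricter call neither loss was called, with 0.25 both were, as 2 regions, and with a penalty of 10 or 20 the 2 losses and the stretch between them became 1 segment of 1299 probes at -0.30. Over the window of the first loss, the 6 post-PHx tumors lay between -0.04 and 0.03 and the other spontaneous tumors between -0.10 (Spon4F) and 0.32 (Spon2M). Over that of the second they lay between -0.03 and 0.01 and between -0.08 and 0.24. Without probes beyond 1 log2 unit the means of the 2 losses in Spon1M were -0.31 and -0.29. Nearer the start of the chromosome, before the first member, this tumor had a further lost segment (chr1:4336501-8772239). Its mean was -0.31, and all 46 probes lay below 0. With a penalty of 20 this segment was not parted from the probes after it.

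The first loss of Spon1M held 31 genes of the lists, all of them below 0 in this tumor, as were 279 of all 281 gene names of the window. Their median was -0.30 beside -0.31 over all 281 names and -0.14 over all gene names of the members. Among genes of liver metabolism, Idh1, which makes NADPH from isocitrate in the cytosol, had a log2 ratio of -0.38, Slc40a1, the iron exporter ferroportin, -0.22, and Aox1, an aldehyde oxidase, -0.17. Of inflammation, 9 names lay here from -0.43 to -0.20, among them the interleukin 1 receptor genes Il1r1 (-0.20) and Il1r2 (-0.43) and the signal transducer gene Stat4 (-0.32). Casp8, which starts death receptor apoptosis, had -0.30, and Cflar, its inhibitor, had -0.22. Of the genes of DNA replication, repair and mitosis, those here ranged from -0.37 (Ercc5, an endonuclease of nucleotide excision repair) to -0.22 (Orc2l, a subunit of the origin recognition complex). Creb1, a transcription factor of the hepatic fasting response, had -0.30 over 5 probes. Of extracellular matrix genes, Col5a2 and Col3a1 had -0.52 and -0.31. Some of these probes were below 0 in most tumors, as the median of the 10 tumors other than Spon1M and Spon2M was -0.21 for Col5a2, -0.21 for Idh1 and -0.20 for Il1r2. Creb1 and Cflar are the genes of their lists with most probes, and the other genes of this loss were picked as examples after their values had been seen. In the 10 tumors other than Spon1M and Spon2M, Creb1 ranged from -0.17 to 0.06 and Cflar from -0.13 to 0.07, whereas Casp8 ranged down to -0.28 in Spon5F.

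The stretch between the losses held Erbb4, a receptor tyrosine kinase of the EGF receptor family (-0.04 over 7 probes), Cps1, the first enzyme of the urea cycle (0.01 over 3 probes), Bard1, the partner of Brca1 (-0.02), and Fn1, fibronectin (-0.22). In the second loss 27 genes of the lists were all below 0 in Spon1M, with a median of -0.29 beside -0.29 over all 303 gene names there, 293 of them below 0. The 27 genes included Xrcc5, the Ku80 subunit of DNA end joining (-0.45), and Igfbp2, a binding protein of insulin-like growth factors secreted by the liver (-0.46). Irs1, a docking protein of the insulin receptor, had -0.42, but also -0.40 in PHx4M, and Cul3, a ubiquitin ligase scaffold, had -0.44. Hdac4, a histone deacetylase, had -0.29. Bcl2, an inhibitor of apoptosis, had -0.27, but it was lower in PHx1M (-0.33). Agxt, the peroxisomal aminotransferase of hepatocytes, had -1.12 in Spon1M from 1 probe, but the same probe had 0.86 in Spon2M and -1.78 in Spon3F, and Col6a3 (-0.55 over 6 probes) held one of the 11 shared probes. Apart from Col6a3, genes of the second loss were named after their values had been seen. The genes of miR-26b (within Ctdsp1) and miR-149 (within Gpc1) lay in the second loss, where the probes between their neighbours had means of -0.26 (5 probes) and -0.24 (8 probes) in Spon1M.

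**Figure D4:**
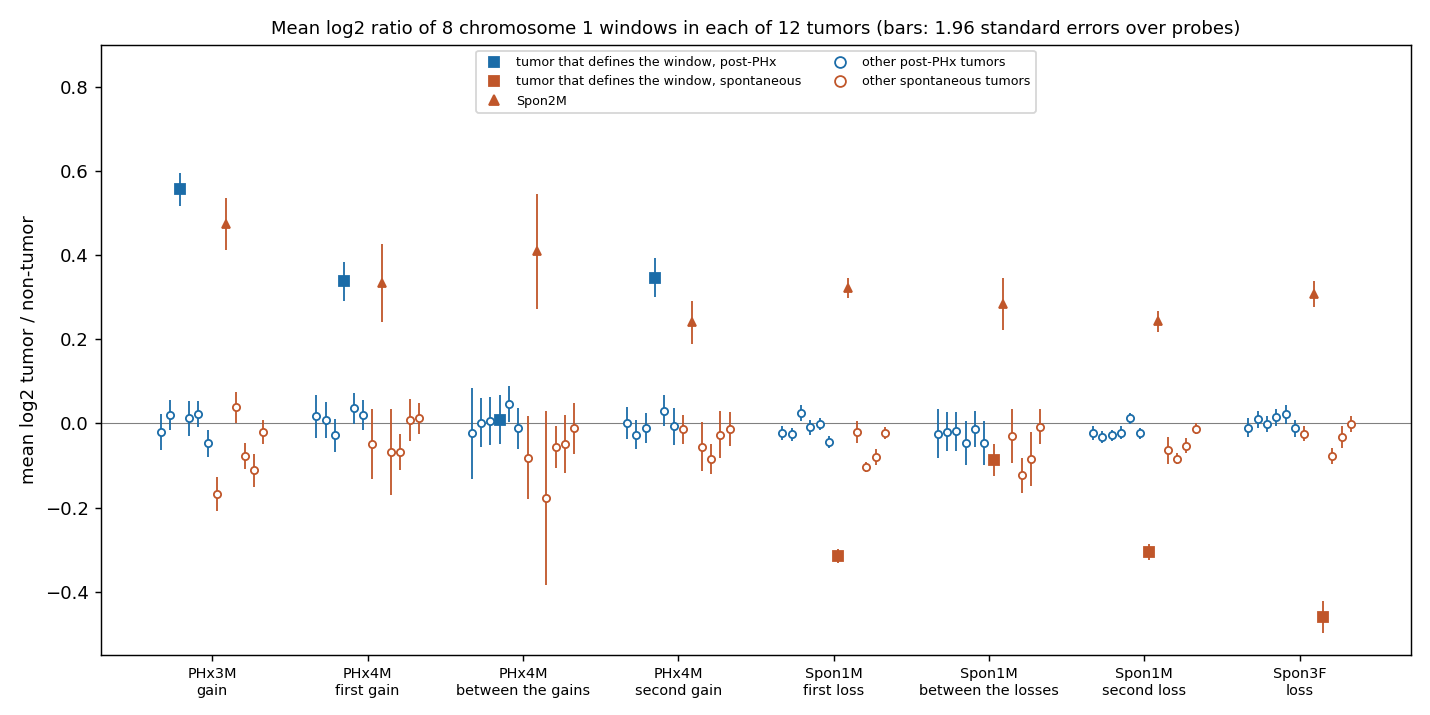
Mean log2 ratio (y axis) of 8 windows of chromosome 1 in each of the 12 tumors, with bars for the 95% interval of the mean over probes, squares for the tumor that defines the window and triangles for Spon2M. In the 6 gained and lost windows the defining tumor stands away from the open circles, and in the 2 windows between gains or losses it does not. Each window was set from the ratios of its defining tumor, so this is a description.

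In Spon2M the whole chromosome was higher. The mean over the members was 0.30, against -0.17 to -0.01 in the other spontaneous and -0.03 to 0.01 in the post-PHx tumors. With a median of 0.28, chromosome 1 was the highest of the 19 autosomes of this tumor, but chromosomes 12 (0.27), 16 (0.26) and 18 (0.22) were close to it. The medians ran down to -0.42 on chromosome 19. No break was found with any of the 3 penalties, but the stricter call marked the proximal part up to 30618938, which beyond 15 Mb had a mean of 0.48 ± 0.36 (SD over 131 probes, 1.39-fold), with 124 of 131 above 0. The remaining 166 Mb had 0.29 ± 0.30 (2495 probes, 1.22-fold), a step of 0.19. The same step was 0.56 in PHx3M, whose gain lies in this window, and between -0.06 and 0.13 in the other 10 tumors. Without probes beyond 1 log2 unit the 2 means were 0.43 and 0.28. Of 55 gene names in the higher part 53 were above 0, with a median of 0.47, beside 1153 of 1260 and a median of 0.28 over all gene names of the members in this tumor.

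The distal loss was that of Spon3F. It ran from inside Ahctf1 to the last probe (chr1:181607453-196871918, 15.3 Mb), with a mean of -0.46 ± 0.33 (SD over 271 probes, 0.73-fold) and 268 of 271 probes below 0. Ahctf1 encodes a nucleoporin that starts the assembly of nuclear pores after mitosis, and the break lay within 24.4 kb between 2 of its probes. The rest of the chromosome had a mean of -0.04 in this tumor, or 0.0045 without probes beyond 1 log2 unit, a step of -0.43 against -0.01 to 0.16 in the other 11. Over this window the post-PHx tumors lay between -0.01 and 0.02, and the other spontaneous tumors between -0.08 (Spon4F) and 0.31 (Spon2M). The window was set from the ratios of Spon3F, so its distance from the others is a description and no test. Without probes beyond 1 log2 unit the mean was -0.41 (261 probes).

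All 16 genes of the lists in this stretch lay below 0 in Spon3F, with a median of -0.39 beside -0.42 over its 117 gene names with a measured probe, all of them below 0, and -0.01 over all gene names of the members. Among them are enzymes of the hepatocyte: Ephx1, the microsomal epoxide hydrolase (-0.74), and Hsd11b1, which activates glucocorticoids (-0.49). Of the hepatocyte transcription factors, Prox1, needed for the migration of hepatoblasts, had -0.27 and Esrrg, an orphan nuclear receptor of energy metabolism, had -0.33. Of mitosis and DNA repair, Cenpf, a kinetochore protein (-0.53), Nek2, a centrosomal kinase (-0.39), Lin9, a subunit of a cell cycle gene regulator (-0.37), and Parp1, the poly(ADP-ribose) polymerase of strand breaks (-0.36), all had negative ratios, and Lbr, the lamin B receptor, had -0.07 from 1 probe. Tgfb2, a growth inhibitory cytokine of fibrosis, had -0.45 over 4 probes, and Ptpn14, a phosphatase that restrains the coactivator Yap1, had -0.41. Atf3, a stress response factor, and Traf5, an adaptor of TNF receptors, had -0.48 and -0.41. Tlr5, the receptor of flagellin, and Cr2, a complement receptor of B cells, had -0.39 and -0.35, and Lamb3, a laminin chain, had -0.28. In the 10 tumors other than Spon3F and Spon2M, Tgfb2 ranged from -0.13 to 0.17, Cenpf from -0.10 to 0.09 and Ephx1 from -0.13 to 0.05. Spon3F, whose own ratios set the window, lay below these ranges. Prox1 had -0.30 in PHx1M, lower than in Spon3F, and the lowest Lbr ratio among the 10 was -0.06 (Spon6F).
The genes of miR-194-1 and miR-215, which are enriched in liver and gut, lay inside this loss within Iars2 (10 probes from Mark1 to Bpnt1, chr1:186628836-187057484), where the mean in Spon3F was -0.35. The gene of miR-205 lay between Camk1g and Plxna2 (-0.53 over 7 probes). Those of miR-29b-2 and miR-29c, miRNAs known to repress collagen mRNAs, lay between Cd34 and Cd46 (chr1:196645512-196765472), where 7 probes had means of -0.45 in Spon3F, 0.37 in Spon2M and -0.11 to 0.08 in the other 10 tumors.

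Between these segments, the genes with most probes of 2 lists lay in the distal stretch that was altered in Spon2M only. Kif14, a kinesin of cytokinesis, had a log2 ratio of 0.24 in Spon2M (4 probes) and -0.09 (PHx3M) to 0.14 (Spon5F) in the other 11 tumors. Rasal2, a Ras GTPase-activating protein, had 0.31 (4 probes) against -0.14 (PHx6F) to -0.0002 (Spon1M). In both genes Spon2M was the highest tumor.

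The remaining called regions held only 2 probes each. In Spon3F, Slc4a3, an anion exchanger, had -1.65 (chr1:75431437-75434283) and En1, a homeobox gene, had -2.39 (chr1:122431931-122435015), and in Spon2M the probes of AK153979 and Bok had 1.42 (chr1:95467752-95518499). The same pairs of probes were also away from 0 on other arrays of slide 3, though not in Spon4F (0.04 to 0.19): that of En1 had -1.78 in Spon1M and 1.69 in Spon2M, that of Slc4a3 had -0.57 and 0.59, and that of AK153979 and Bok had -0.70 in Spon1M and -0.85 in Spon3F. On the 6 post-PHx arrays these 3 pairs lay between -0.09 and 0.19. In the Spon2M pair the green channel deviated from the other arrays by -1.18 and the red channel by 0.25. The 633 probes dim in both channels of Spon4F were also left out, an alternative added after seeing the data. The regions at En1 and at AK153979 and Bok were then no longer called, while that at Slc4a3 and the 3 regions of over 2 probes remained. Over these 3 whole regions, any part below 15 Mb included, the means were 0.52 (PHx3M), 0.47 (Spon2M) and -0.46 (Spon3F). With the dim probes kept they were 0.52, 0.48 and -0.46.

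The 2 channels of an array show which DNA held a shift. In all gained and lost windows but the gain of PHx3M, the green channel stayed within the range of the other 11 arrays. The red channel was beyond that range in the second gain of PHx4M, both losses of Spon1M, the rest of Spon2M and the loss of Spon3F, but within it in the gain of PHx3M (other arrays up to 0.44), the first gain of PHx4M (up to 0.32) and the higher part of Spon2M (up to 0.44). For PHx3M and PHx4M the other arrays include Spon2M, gained over the whole chromosome, and for the higher part of Spon2M they include PHx3M. Over the rest of Spon2M the other arrays reached only 0.06 in red. In the loss of Spon3F the red channel deviated from the other arrays by a median of -0.41 and the green channel by -0.0015. In the losses of Spon1M red stood at -0.30 and -0.32 and green at 0.01 and -0.01, and in the gains of PHx4M red stood at 0.24 and 0.30 and green at -0.0008 and -0.03. In Spon2M red was 0.43 in the higher part and 0.32 in the rest, with green at -0.02 and 0.01. In the gain of PHx3M red was 0.40, but green was also shifted, at -0.14, below the -0.07 to 0.05 of the other 11 arrays, so the ratio of 0.56 held a part from the non-tumor channel.

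**Figure D5:**
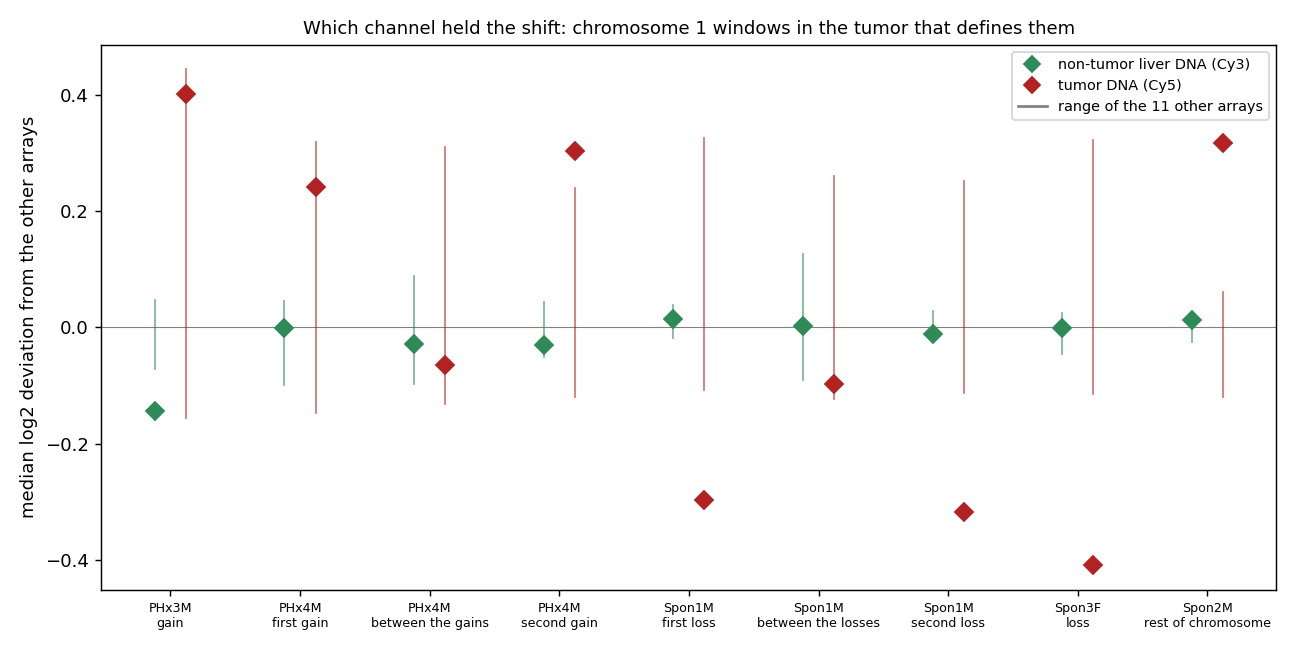
Median log2 deviation (y axis) of the non-tumor channel (green diamonds) and the tumor channel (red diamonds) from the other 11 arrays, for windows of chromosome 1 in the tumor that defines each, with lines for the range of the 11 arrays. The green diamond of the PHx3M gain, at -0.14, is the only green one outside its line.

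The design implies a comparison of the 2 groups along the chromosome. Means were taken over 3 blocks, the first from 15 to 75 Mb, the second of the same length after it and the third from there to the end. In the first block the 6 post-PHx tumors had a mean of -0.01 ± 0.04 (SD) and the 6 spontaneous tumors one of -0.03 ± 0.20, in the second -0.01 ± 0.02 and -0.03 ± 0.17, and in the third -0.01 ± 0.02 and -0.0015 ± 0.16. The groups overlapped in every block, with all 6 post-PHx tumors inside the range of the spontaneous ones. The extremes of the spontaneous group were Spon1M (-0.27 and -0.25) and Spon2M (0.32 and 0.27) in the first 2 blocks and Spon3F (-0.13) and Spon2M (0.30) in the third.
In 1 Mb bins compared with limma over all 12 arrays, 0 of 147 bins of chromosome 1 beyond 15 Mb differed between the groups at an adjusted p of 0.05, and the smallest adjusted p was 0.903. Over the genome it was 0 of 2137 bins, or 0%. At an unadjusted p of 0.05 there were 0 bins on chromosome 1 and 120 (5.62%) in the genome. The differences, post-PHx minus spontaneous, ran from -0.11 to 0.13 on the log2 scale with a median of 0.01. The bin with the smallest p, from 68000001 to 69000000, had a difference of -0.11 (95% interval -0.24 to 0.01). When Spon2M was left out, 18 of the 147 bins (12.2%) had an unadjusted p under 0.05, all higher in post-PHx tumors. In the genome it was then 131 of 2137 bins (6.13%), and still 0 passed the adjusted threshold (smallest adjusted p 0.708). As Spon2M was known to be high over the whole chromosome, nothing is read from this count.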

How the data were processed

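The members and gene lists were chosen with earlier results of these data known. The authors deposited the output of Agilent Feature Extraction 10.5.1.1 for each array: the processed signal intensity of each channel, background-subtracted and dye-scaled, and the deposited log10 ratio of red over green with its error. Probe positions and gene names are those of the files (mm8).

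Ratios were put on the log2 scale, spots marked as outliers were dropped, spots of a probe averaged and each array centred on its autosomal median, with no further normalization. Regions were called on the whole chromosome by a score of each interval weighted by the deposited errors, modelled on ADM-2, which the study's methods name, and clipped at 15 Mb. Segments came from a penalised least-squares partition (at least 5 probes), and break intervals from positions raising the residual by at most 4 noise variances. The segmentation, the 0.2 bound and the comparison of channels were chosen after values had been seen. Bins of 1 Mb with at least 3 probes on every array were compared with limma 3.58.1 in R (lmFit, eBayes, Benjamini-Hochberg adjustment over all bins). Callers and the model were tested on simulated data. The number of arrays and the signal over background limit the precision.

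Named genes were those of 9 lists inside a called region or in the block with the largest mean of any tumor, and the gene with most probes of each list, of which some are not reported here. Alternatives were normexp (offset 50), no or mode centring, well-above-background spots, outliers kept, equal weights, thresholds of 5, 8 and 10, minima of 0.25 and 0.6 or of 5 probes, 5 Mb bins, a model term for slide, for sex or for tumor number, and each tumor left out. Tumor numbers are shared by the groups but belong to different mice. miRNA genes were placed by their RefSeq neighbours (GRCm38.p6), without converting coordinates. Of 1261 gene names, 737 were RefSeq symbols and 181 synonyms only.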

Additional observations from a re-analysis of the deposited data

Results flagged for a closer look

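Spon2M stood apart from the other spontaneous tumors over all of chromosome 1 beyond 15 Mb, with a mean log2 ratio of 0.2999 against -0.17 to -0.01 in the other 5, and in the distal of the 3 blocks, with 0.3035 against -0.13 to -0.01. In both, its gap to the nearest tumor was over the bound of a test for 1 outlying sample among 6 (0.672 and 0.717 of the whole range). Of 8 groups checked in this way 2 were marked, both through this tumor, and the second lies within the first. Chance marks about 1 in 20, but the stretch was selected on these ratios, so the marks are a description and no test. Spon2M was also the noisiest array, and its shift lay in the tumor channel.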

How the results depend on the processing

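The count of called regions (6 in 3 tumors, 1 post-PHx and 5 spontaneous, 3 of over 2 probes) depended on the caller. A minimum mean of 0.25 gave 10 regions in 5 tumors, 3 of them post-PHx and 8 of over 2 probes, whereas 0.6 left 0 post-PHx regions and 0 of over 2 probes. A score threshold of 10 gave 3 regions, 2 of them spontaneous, and so did a minimum of 5 probes. Equal probe weights gave 4 post-PHx regions and 6 tumors, kept outliers gave 2 post-PHx regions, and normexp gave 6 regions of over 2 probes. Without the probes dim in Spon4F there were 3 spontaneous regions. Leaving out each tumor in turn gave 3 to 6 regions in 2 to 3 tumors, 0 to 1 of them post-PHx, 2 to 5 spontaneous and 2 to 3 of over 2 probes; without Spon3F 3 regions remained, 2 of them spontaneous, without PHx3M 0 post-PHx regions and without Spon2M 3 spontaneous ones. The cause of these changes was not tested. The sign of every gained and lost window mean held under all 7 alternatives tried for it, and the group means of the blocks moved by less than their SD. Leaving out 1 tumor moved the spontaneous means of the 3 blocks from -0.03, -0.03 and -0.0015 to -0.10, -0.09 and -0.06 without Spon2M, the first 2 to 0.02 and 0.01 without Spon1M, and the third to values between 0.0044 and 0.02 without Spon1M, Spon3F, Spon4F or Spon5F. Of the 3 penalties only 6 parted the gains of PHx4M, the losses of Spon1M and the levels of PHx3M. The region caller also parted the first 2 at a minimum of 0.25, and with equal weights it ended the region of PHx3M at the step. The bins compared with limma gave 0 calls under all 23 alternatives (smallest adjusted p 0.338 to 0.999). With the tumor number as a replicate block 0 bins passed. Same-numbered tumors correlated by -0.13 to 0.39 over bins, above 0.1 in 1 of 6 pairs, so the numbers do not pair the samples. With slide as a block or on slide 2 alone, the only one with both groups, 0 bins passed.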
